A study of Mus musculus with 48 samples.

Results

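The genes described here were 8 transcription factor genes that act in the commitment of progenitors and the differentiation of neurons: *Neurog2*, *Neurod1*, *Neurod2*, *Neurod4*, *Neurod6*, *Nhlh1*, *Nhlh2* and *Insm1*. They were chosen by name and not by a measured value, though with earlier results of these data known. All 8 were among the 16510 genes of the table. *Insm1* encodes a zinc-finger factor, and the other 7 encode basic helix-loop-helix (bHLH) proteins. Proneural bHLH factors such as Neurog2 start neurogenesis in dividing progenitors, and the Neurod and Nhlh factors follow in the daughter cells as these leave the cell cycle and mature. The bHLH proteins bind the E-box, a short palindromic DNA element, as dimers with ubiquitous E proteins. Notch signalling restrains them through Hes and Hey repressors, and Id proteins capture their E protein partners. In the hypothalamus, Neurog2 is tied to glutamatergic neurons, Nhlh2 is known from neurons that govern body weight and reproduction, and *Insm1* marks newly born neurons and neuroendocrine cells.

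Single cells of the hypothalamus were profiled at E18.5 in 6 control embryos (*Eed* fl/fl) and 9 *Eed-cKO* embryos (*Eed* fl/fl; *Sox1-Cre*/+). Both genotypes thus carried floxed *Eed* alleles, and only the mutants carried the recombinase, which the *Sox1* gene drives in the neural lineage. *Eed* encodes a core subunit of polycomb repressor complex 2, which places a repressive histone mark. The control group held 2 female and 4 male embryos and the *Eed-cKO* group 5 female and 4 male embryos. The embryos gave 48 droplet libraries and 14121 cells, 7186 control and 6935 *Eed-cKO*. A value is a count of unique molecular identifiers (UMIs), each standing for 1 captured transcript molecule, and levels are given as counts per 1000000 UMIs (CPM) of the summed cells of an embryo. After non-neural clusters were removed, 6839 control and 6454 *Eed-cKO* cells remained and are called All-Hypo.

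The depth per embryo ran from 5363119 to 7487417 UMIs in controls and from 658175 to 6299181 in *Eed-cKO*, where *Eed-cKO* embryo 2 had 1 library and 217 cells. *Eed* itself was lower in All-Hypo cells of *Eed-cKO* (log2 fold change −0.45 ± 0.08 SE, adjusted p = 0.000454, edgeR quasi-likelihood test). In none of the 6 classes of cells described below did *Eed* pass the test by itself, with log2 fold changes from −0.95 in cycling cells to 0.31 in double-positive cells. The floxed allele of the study loses some of the exons of *Eed*, and its libraries read transcript ends. Whether transcripts of the deleted allele were still counted was not tested, so these values do not measure how fully *Eed* was lost. The leading number of each library name, taken as the litter, was shared by no control and *Eed-cKO* embryo, so that litter and genotype cannot be told apart. A barcode was shared with another library in 203 cells (1.44%), with at most 2 cells in any pair of libraries. Of 6 telencephalic marker genes, all 6 were detected in All-Hypo cells of both genotypes, with a summed level of 17.7 to 135 CPM in controls and 66.2 to 116 CPM in *Eed-cKO*. Of 9 pituitary markers, 5 were measured, with a summed level of 58.7 to 94.8 CPM in controls, where *Pitx1* was at 0, and 145 to 237 CPM in *Eed-cKO*. Leaving out an unnamed cluster of 61 cells with raised *Cga*, *Tshb* and *Pitx1* changed no call of the genes tested in All-Hypo cells. Markers in the remaining cells stayed in, and their part in the results below was not tested.

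The clusters were built without the 8 genes. All-Hypo cells fell into cycling cells (1 cluster, led by *Top2a*), glia (an astrocyte-like, a tanycyte-like and an ependymal-like cluster), neuron-like clusters and 4 unnamed clusters. The cycling cluster also had 8 of 8 oligodendrocyte precursor markers raised. Neuron-like cells were split by at least 1 UMI of *Slc17a6*, the vesicular glutamate transporter gene, and of *Slc32a1*, the vesicular GABA transporter gene, into *Slc17a6*-only, *Slc32a1*-only, double-positive and transmitter-negative cells. The share of *Slc32a1*-only cells among All-Hypo cells was 19.6% ± 4.15 (SD, n = 6) in controls and 8.49% ± 1.39 (n = 9) in *Eed-cKO* (adjusted p = 0.000599, exact permutation test, two-sided), and that of double-positive cells was 3.92% ± 1.73 and 14.6% ± 3.30 (adjusted p = 0.000599, same exact test). Glia made up 6.86% ± 1.64 and 12.7% ± 2.98 (adjusted p = 0.0040), and *Slc17a6*-only cells 35.5% ± 5.35 and 30% ± 3.30 (adjusted p = 0.0495), by the same exact permutation test. The last of these calls was lost when any 1 of 11 of the 15 embryos was left out (adjusted p from 0.0157 to 0.121 over the 15, exact permutation test) and when cells were thinned to 2000 UMIs (a difference of −1.41 percentage points, adjusted p = 0.458). Thinning, here and below, left out cells under 2000 UMIs and split neuron-like cells anew by their thinned UMIs of *Slc17a6* and *Slc32a1*. A thinned class thus need not hold the same cells. A level over all cells moves with the shares of the classes, since fewer cells of a type and less RNA per cell cannot be told apart in a sum.

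The promoters of the 4 genes that passed a test between genotypes in at least 1 set of cells are shown here, from 250 bases before to 50 bases after the RefSeq gene start in build GRCm38.p6, with E-boxes (CANNTG on either strand) in capitals. They lie at chr2:79456587-79456886 (*Neurod1*, minus strand), chr11:98329596-98329895 (*Neurod2*, minus strand), chr6:55681214-55681513 (*Neurod6*, minus strand) and chr3:102009895-102010194 (*Nhlh2*, plus strand).
Neurod1: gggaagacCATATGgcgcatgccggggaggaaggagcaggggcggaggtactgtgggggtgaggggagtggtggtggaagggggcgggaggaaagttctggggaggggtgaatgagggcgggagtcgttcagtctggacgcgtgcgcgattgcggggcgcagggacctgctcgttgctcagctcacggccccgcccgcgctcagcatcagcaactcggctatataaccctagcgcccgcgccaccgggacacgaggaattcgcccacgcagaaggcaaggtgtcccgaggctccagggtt
Neurod2: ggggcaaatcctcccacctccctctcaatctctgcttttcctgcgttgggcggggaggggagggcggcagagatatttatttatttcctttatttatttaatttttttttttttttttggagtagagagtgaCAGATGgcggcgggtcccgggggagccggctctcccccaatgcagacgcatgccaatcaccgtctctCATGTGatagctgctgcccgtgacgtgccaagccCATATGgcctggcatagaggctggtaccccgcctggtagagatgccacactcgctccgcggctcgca
Neurod6: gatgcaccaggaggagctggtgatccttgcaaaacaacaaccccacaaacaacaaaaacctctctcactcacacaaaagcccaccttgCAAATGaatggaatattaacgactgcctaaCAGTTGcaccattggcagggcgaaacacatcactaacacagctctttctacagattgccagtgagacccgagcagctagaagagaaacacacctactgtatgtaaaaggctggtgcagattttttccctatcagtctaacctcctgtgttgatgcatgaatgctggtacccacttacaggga
Nhlh2: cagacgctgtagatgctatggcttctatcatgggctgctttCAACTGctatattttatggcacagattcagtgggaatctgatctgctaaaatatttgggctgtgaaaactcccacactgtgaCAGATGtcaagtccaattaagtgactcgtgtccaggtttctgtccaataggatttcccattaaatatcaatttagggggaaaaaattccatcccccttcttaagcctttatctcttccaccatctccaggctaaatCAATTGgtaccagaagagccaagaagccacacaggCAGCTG

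The *Neurod1* window held 1 E-box, *Neurod6* 2, *Neurod2* 3 and *Nhlh2* 4. An E-box occurs in 72.3% of all 32851 RefSeq mouse promoters of this length, so that its presence sets none of the 4 apart. The form CAGATG, found in 17.2% of all promoters, occurred in those of *Neurod2* and *Nhlh2*, and the form CAGCTG, found in 16.3%, in that of *Nhlh2*. CG dinucleotides numbered 26 in the *Neurod1* window, 16 in *Neurod2*, 3 in *Neurod6* and 2 in *Nhlh2*, beside a median of 7 over all promoters. The 4 windows thus differed in their CG content, and these letters describe the windows only.

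In control embryos, 5 of the bHLH genes were higher in *Slc17a6*-only than in *Slc32a1*-only cells, and *Insm1* gave no call between these classes. Of the 7 genes tested between *Slc17a6*-only and *Slc32a1*-only cells of the same control embryos, 5 were higher in *Slc17a6*-only cells and none was lower (edgeR, embryo as a block), beside 2.52% of 14575 genes that were higher. *Nhlh2* was at 138 ± 24.9 CPM (SD, n = 6) against 8.66 ± 4.32 CPM (log2 difference 4.09 ± 0.21 SE, adjusted p = 3.20e-25, edgeR). *Neurod6*, which marks maturing excitatory neurons, was at 45.4 ± 12.2 CPM against 2.90 ± 2.99 CPM, and *Neurod1*, which promotes survival and differentiation of newly born neurons, at 45.4 ± 14.3 CPM against 3.39 ± 4.29 CPM. *Neurod2*, a relative of *Neurod6* active in postmitotic excitatory neurons, stood at 13.6 ± 3.85 CPM against 0.33 ± 0.81 CPM, the latter from 3 UMIs of 1 embryo. *Neurog2* stood at 8.70 ± 5.78 CPM against 1.05 ± 1.43 CPM. The adjusted p was 2.59e-12 for *Neurod6*, 9.54e-12 for *Neurod1*, 1.6e-09 for *Neurod2* and 8.33e-05 for *Neurog2* (edgeR). On thinning to 2000 UMIs per cell the call of *Neurog2* was lost, and its log2 difference went from 3.0 to 0.66 (adjusted p = 0.860, edgeR). *Nhlh1*, a close relative of *Nhlh2* switched on early in nascent neurons, had 25 UMIs against 1 and missed the threshold (adjusted p = 0.0686, edgeR), and *Insm1* stood at 38.7 ± 7.38 CPM against 41.4 ± 11 CPM (adjusted p = 0.957, edgeR; log2 difference −0.05 ± 0.15 SE). The same 5 genes were higher in *Slc17a6*-only cells of *Eed-cKO*, beside 3.81% of 14845 genes, with log2 differences from 1.68 (*Neurod2*) to 4.57 (*Neurod6*). There the calls of *Neurod2* (0.70, adjusted p = 0.674, edgeR) and *Neurog2* (2.27, adjusted p = 0.0852, edgeR) were lost on thinning.

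The order of the classes differed between genes, and many neighbours in it could not be parted. For *Nhlh2* in controls, *Slc17a6*-only cells came first, then transmitter-negative neurons (112 ± 51.6 CPM, adjusted p = 0.0760 against the former, edgeR), then double-positive cells (64.5 ± 21.6 CPM) and glia (22.2 ± 15 CPM). The last 2 steps each passed the test (adjusted p = 0.0398 and 0.000193, edgeR), though the first of them was lost without any 1 of control embryos 2 to 6 (adjusted p from 0.0506 to 0.186 for *Nhlh2*), and the steps from glia to cycling cells (17.7 ± 13.4 CPM) and on to *Slc32a1*-only cells did not. *Neurod6* in controls was at the same level in double-positive (46.3 ± 46.9 CPM) and *Slc17a6*-only cells within its spread, and lower, at 9.69 ± 8.91 CPM, in transmitter-negative neurons (adjusted p = 7.95e-07, edgeR). For *Neurod1*, *Neurod2* and *Neurog2* no 2 neighbouring classes in controls differed past the threshold. *Insm1* was highest in transmitter-negative neurons, at 79.5 ± 22.8 CPM, above the 41.4 ± 11 CPM of *Slc32a1*-only cells next in order (log2 difference 0.95, adjusted p = 2.17e-05, edgeR), and lowest in cycling cells at 8.82 ± 13.5 CPM. On thinning to 2000 UMIs the first of these calls was lost too (*Insm1* at −0.34 in *Slc32a1*-only against transmitter-negative cells, adjusted p = 0.862, edgeR). The first place of transmitter-negative neurons for *Insm1* was seen in *Eed-cKO* too, at 97.2 ± 32.2 CPM against 56.9 ± 36.6 CPM in *Slc32a1*-only cells (adjusted p = 0.0089, edgeR), a call lost without *Eed-cKO* embryo 5 (adjusted p = 0.0989) and on thinning to 2000 UMIs (log2 difference of 0.12 in the opposite direction for *Insm1*, adjusted p = 0.933). Transmitter-negative neurons had the lowest median depth of the neuron classes, 3776.5 UMIs per cell in controls and 3359 in *Eed-cKO*, and an absent transporter cannot be told apart from one that was not captured.

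**Figure D1:**
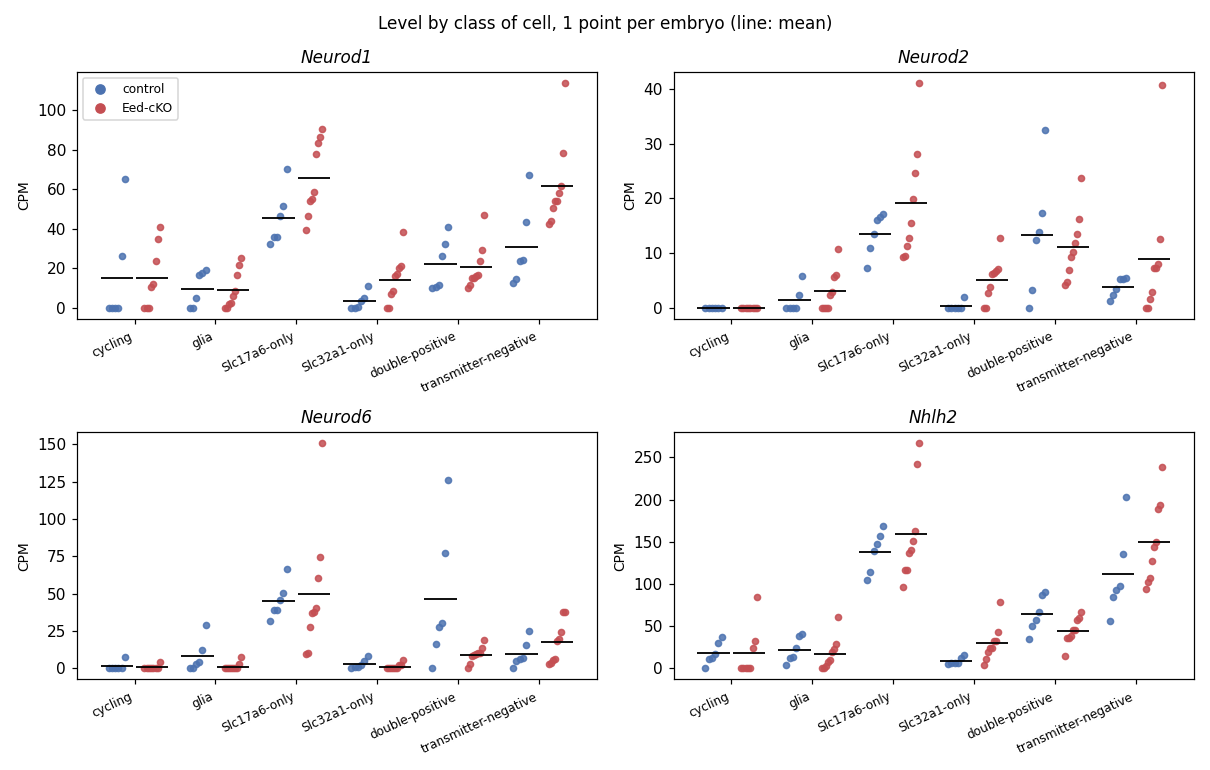
Levels of *Neurod1*, *Neurod2*, *Neurod6* and *Nhlh2* in CPM on the y axis in 6 classes of cells on the x axis, with 1 point for each control or *Eed-cKO* embryo and a line at the mean. The means of *Slc17a6*-only cells stand above those of *Slc32a1*-only cells for all 4 genes in both genotypes, and the *Slc32a1*-only points of *Neurod1*, *Neurod2* and *Nhlh2* reach higher in *Eed-cKO* than in controls.

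In All-Hypo cells, 1 member rose in *Eed-cKO*, and the other 5 tested did not pass. The comparison asks whether loss of *Eed* moved these genes in the hypothalamus as a whole. The member that rose, *Neurod1*, ran from 22.3 to 41.8 CPM with a median of 28.9 CPM in the 6 controls and from 29.2 to 54.5 CPM with a median of 40.0 CPM in the 9 mutants. The ranges overlapped, all 9 mutants lay above the control median, and 4 lay above the highest control. The means were 29.8 ± 7.41 and 41.4 ± 7.25 CPM (log2 fold change 0.47 ± 0.14 SE, adjusted p = 0.0158, edgeR). The count of 1 of 6 tested stands beside 27.7% of 12558 genes called in either direction and 15.3% called higher, and 1 of 6 is near these shares. The median log2 fold change of the 6 was 0.13, beside 0.01 for all genes tested. DESeq2 also called 1 of the 6, and limma-voom with the study's fold threshold of 0.18 (log2) called none (adjusted p = 0.118 for *Neurod1*). The *Neurod1* gene (chr2:79452521-79456751, minus strand, 2 exons) overlaps *Cerkl* on its own strand and the noncoding *Gm26755* on the other, so that reads of these genes may enter its count.

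The other genes of All-Hypo cells gave no call. *Nhlh2* ran from 69.7 to 105 CPM with a median of 97.4 CPM in controls and from 65.2 to 149 CPM with a median of 92.3 CPM in *Eed-cKO* (log2 fold change 0.08 ± 0.14 SE, adjusted p = 0.719, edgeR). *Insm1* had medians of 42.6 CPM in both genotypes, with ranges of 33.9 to 57.4 and 28.7 to 61.8 CPM (0.06 ± 0.15, adjusted p = 0.806, edgeR). The mutants spanned the control range for both genes. *Neurod6* had a median of 27.9 CPM in controls, between 19.7 and 36.0 CPM, and of 18.3 CPM in *Eed-cKO*, between 8.20 and 64.7 CPM. Of the 9 mutants, 5 lay below the lowest control and 2 above the highest, and the value of 64.7 CPM belonged to embryo 2 with its 208 All-Hypo cells (log2 fold change −0.40 ± 0.28, adjusted p = 0.308, edgeR). *Neurod2* ran from 5.43 to 10.2 CPM in controls and from 4.99 to 20.5 CPM in *Eed-cKO*, with 4 mutants above every control (adjusted p = 0.312, edgeR). *Neurog2*, the determination factor of the set, ran from 3.79 to 12.8 CPM in controls and from 1.58 to 11.5 CPM in *Eed-cKO* (adjusted p = 0.681, edgeR).

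The scarcest members failed the filter on low values. *Nhlh1* had 39 UMIs in controls, at 0.32 to 1.6 CPM, and 107 in *Eed-cKO*, at 0 to 7.04 CPM. The high mutants were embryos 4 and 5, with 31 and 41 of the 107 UMIs, and 5 of the 9 lay above the highest control. *Neurod4*, which acts with proneural factors in early neurons of other brain regions, had 4 UMIs in controls, where 3 of 6 embryos were at 0, and 16 UMIs in *Eed-cKO*, where 2 of 9 were at 0 (ratio of pooled levels 4.55, 95% interval 1.47 to 18.7 for counting error only). When only the count filter was applied, 15773 genes were tested and 25.9% called. *Nhlh1* then passed (log2 fold change 1.41, adjusted p = 0.0271, edgeR) and *Neurod4* did not (1.84, adjusted p = 0.0657, edgeR). *Neurod4* met that filter only through the mutants.

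**Figure D2:**
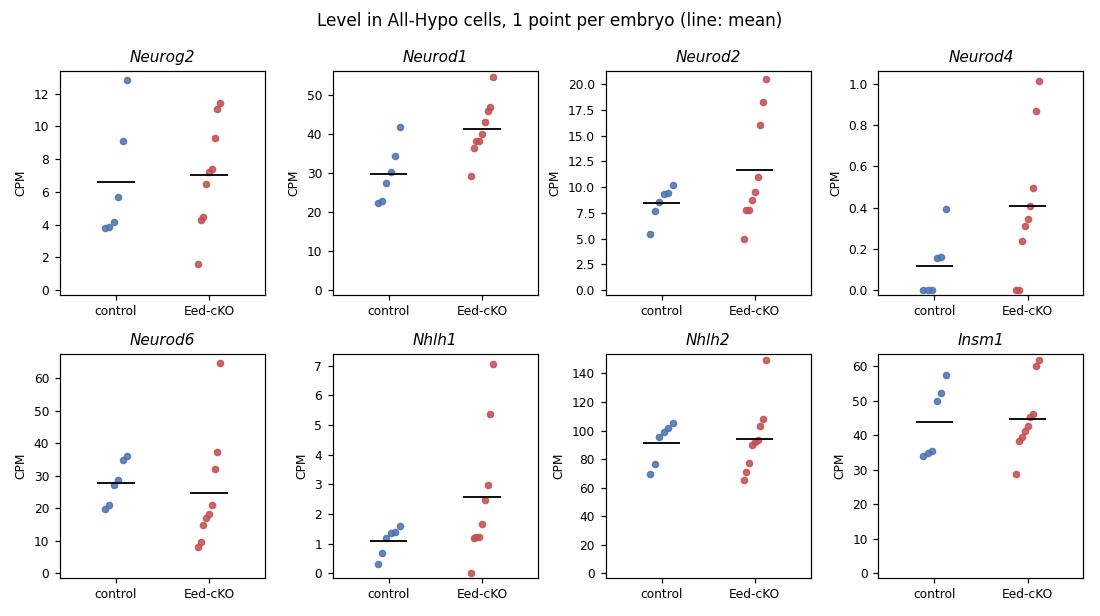
Levels of the 8 genes in All-Hypo cells in CPM on the y axis for the 6 control and 9 *Eed-cKO* embryos on the x axis, with 1 point per embryo and a line at the mean. The genotypes overlap for every gene, and *Neurod1* is the gene for which all 9 mutants lie above the control median of 28.9 CPM.

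In *Slc32a1*-only cells *Nhlh2* and *Neurod1* rose in *Eed-cKO* and no member fell, beside 3.96% of 12638 genes that rose and 9.07% that were called in either direction. *Neurod2* was called higher too, but it met the filter on low values only through the mutants, where it was high, and is not counted with them. *Insm1* and *Neurod6* were the other genes tested. *Nhlh2* ran from 4.85 to 15.8 CPM with a median of 6.51 CPM in controls and from 4.23 to 78.7 CPM with a median of 23.7 CPM in mutants. Of the 9 mutants, 7 lay above every control and 1 below, and embryo 4 was the highest. The means were 8.66 ± 4.32 and 29.7 ± 21.6 CPM (log2 fold change 1.86 ± 0.35 SE, adjusted p = 0.000151, edgeR). *Neurod1* ran from 0 to 11.1 CPM in controls with a median of 2.16 CPM and from 0 to 38.2 CPM in mutants with a median of 16.2 CPM. In each genotype 2 embryos were at 0, and 5 mutants lay above the highest control (log2 fold change 1.93 ± 0.54, adjusted p = 0.0143, edgeR). *Neurod2* rested on 3 UMIs, all of control embryo 6, and 14 UMIs spread over 7 of 9 mutants, a total of 17 that only just met the minimum of 15 UMIs for a test. The ratio of its pooled levels was 13.3, with a 95% interval from 3.71 to 72.1 for counting error only (adjusted p = 0.0033, edgeR). *Insm1* and *Neurod6* did not pass in these cells (adjusted p = 0.157 and 0.559, edgeR).

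The *Slc32a1*-only class was not made of the same clusters in the 2 genotypes. In controls 46.8% of its cells belonged to the cluster led by *Sp8* and 34.3% to that led by *Dlx1* and *Six6*, whereas in *Eed-cKO* 40.2% belonged to the cluster led by *Tfap2b* and *Hoxc10* and 26.5% to that led by *Cited1* and *Npy*. The *Tfap2b* cluster held 1539 cells, 1518 of them *Eed-cKO*. It supplied 10 of the 14 *Neurod2* UMIs and 40 of the 87 *Nhlh2* UMIs of the mutant class, and 20 further *Nhlh2* UMIs came from 2 cells of the cluster led by *Cck*. Without the *Tfap2b* cluster, an alternative set up once the data had been seen, *Nhlh2* stood at a log2 fold change of 1.6 (adjusted p = 0.0112, edgeR) and *Neurod1* at 1.77 (adjusted p = 0.0481), whereas *Neurod2* was left with too few UMIs for a test. The call of *Neurod1* was lost under DESeq2 (2.11, adjusted p = 0.163), when a positive cell needed at least 2 UMIs (1.33, adjusted p = 0.223) and when cells were thinned to 2000 UMIs (0.84, adjusted p = 0.665). A UMI of *Neurod1* was found in 0.688% of *Slc32a1*-only cells in controls and 5.34% in *Eed-cKO* (95% exact binomial interval 3.63 to 7.53%), beside 2.02% and 1.66% of non-neural cells, whose median depths of 3946 and 3708 UMIs per cell stand against 5361 and 4348.5 in the class. The control share thus lay under the background of cells that should lack the gene. The interval of the mutant share counts cells as independent and does not cover the spread between embryos. Of the 28 *Neurod1* UMIs of control *Slc32a1*-only cells, 17 came from 3 cells of the cluster led by *Neurod6*. Pituitary markers summed to 4.52 to 17 CPM in *Slc32a1*-only cells of controls, where *Tshb* and *Pitx1* were at 0, and to 34.3 to 72 CPM in *Eed-cKO*, and their part in the result was not tested.

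The difference between the genotype effects in *Slc32a1*-only and *Slc17a6*-only cells was tested itself. Of 7 genes tested, none had a smaller rise in *Slc32a1*-only cells, and *Nhlh2* had a larger one, beside 0.474% of 14549 genes with a larger rise. For *Nhlh2* the difference of log2 fold changes was 1.54 ± 0.29 SE (adjusted p = 0.000156, edgeR). *Neurod2* was called larger too (3.14 ± 0.80, adjusted p = 0.0144, edgeR). Its values in *Slc32a1*-only cells rest on 3 control and 14 mutant UMIs, as given above, so it is not counted with *Nhlh2*. For *Neurod1* the difference was 1.36 ± 0.46 and missed the threshold (adjusted p = 0.143, edgeR). Without the *Tfap2b* cluster the difference for *Nhlh2* was 1.15 (adjusted p = 0.0576) and that for *Neurod2* 1.98 (adjusted p = 0.523). With limma-voom and the embryo as a random block, the call of *Nhlh2* was lost (1.41, adjusted p = 0.159), as it was on thinning to 2000 UMIs (1.36, adjusted p = 0.240), and leaving out control embryo 1 or 2 ended that of *Neurod2* (adjusted p = 0.0542 and 0.0577, edgeR).

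In *Slc17a6*-only cells no member passed. Of 7 tested, 0 were called by edgeR, 0 by DESeq2 and 0 by limma-voom with the fold threshold, and 2 (*Nhlh1* and *Neurod1*) had an unadjusted p under 0.05, beside 7.16% of 14128 genes called. *Neurod1* ran from 32.1 to 70.4 CPM with a median of 41.2 CPM in controls and from 39.5 to 90.5 CPM with a median of 58.6 CPM in *Eed-cKO*. The ranges overlapped, with 8 of 9 mutants above the control median (log2 fold change 0.52 ± 0.17, adjusted p = 0.0617, edgeR). Without the *Tfap2b* cluster, which held 18.3% of this class in *Eed-cKO*, the value was 0.63 with an adjusted p of 0.0333, and after thinning to 2000 UMIs it was −0.04 with an adjusted p of 0.967. *Nhlh2* ran from 104 to 168 CPM in controls and from 95.8 to 267 CPM in mutants (adjusted p = 0.366, edgeR). *Neurod6* ran from 31.4 to 66.4 CPM in controls and from 9.70 to 151 CPM in mutants, whose SD of 43.2 CPM stood against 12.2 CPM in controls (adjusted p = 0.730, edgeR).

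In double-positive cells *Neurod6* fell in *Eed-cKO*, the only member of 6 tested to pass there, beside 1.62% of 12590 genes that fell and 4.44% called in either direction. Its level ran from 0 to 126 CPM with a median of 29.0 CPM in controls and from 0 to 18.9 CPM with a median of 9.23 CPM in mutants. Control embryos 3 and 6 were high at 126 and 77.4 CPM, control embryo 4 and mutant embryo 2 were at 0, and no mutant reached the control median. The means were 46.3 ± 46.9 and 9.13 ± 5.53 CPM (log2 fold change −2.03 ± 0.38 SE, adjusted p = 0.000197, edgeR). The *Tfap2b* cluster held 71.3% of the mutant double-positive cells at a pooled *Neurod6* level of 5.72 CPM. The cluster led by *Neurod6* held 58.6% of the *Neurod6* UMIs of control double-positive cells and 51.4% of those of the mutants, in 15 and 17 cells. Without the *Tfap2b* cluster the call was lost (−1.07, adjusted p = 0.275), as it was with limma-voom and the fold threshold (−1.43, adjusted p = 0.196). *Nhlh2* had an unadjusted p under 0.05 here and missed the threshold, with medians of 62.0 CPM in controls and 45.1 CPM in mutants (adjusted p = 0.284, edgeR). The genotype effect in double-positive cells was lower than in *Slc17a6*-only cells for 2 of 7 genes, beside 0.66% of 14541 genes with a lower effect. These were *Neurod6* (difference of log2 fold changes −1.69 ± 0.33, adjusted p = 0.000292, edgeR) and *Nhlh2* (−0.82 ± 0.18, adjusted p = 0.0017, edgeR). Both calls were lost without the *Tfap2b* cluster (−0.97 and −0.32, adjusted p = 0.254 and 0.830), on thinning to 2000 UMIs (−1.91 and −1.16, adjusted p = 0.182 and 0.525) and with the embryo as a random block in limma-voom (−0.93 and −0.71, adjusted p = 0.622 and 0.343). That of *Nhlh2* was also lost when a positive cell needed at least 2 UMIs (−0.86, adjusted p = 0.252).

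In transmitter-negative neurons *Neurod1* rose, 1 of 7 genes tested, beside 2.44% of 12568 genes that rose and 4.99% called in either direction. It ran from 12.6 to 67.1 CPM with a median of 24 CPM in controls and from 42.5 to 114 CPM with a median of 54.0 CPM in mutants. All 9 mutants lay above the control median and 2 above the highest control (log2 fold change 1.02 ± 0.25, adjusted p = 0.0075, edgeR). DESeq2 did not call it (1.04, adjusted p = 0.0802), and without the *Tfap2b* cluster the value was 1.29 (adjusted p = 0.000715). The cluster led by *Neurod6* gave 45.0% of the *Neurod1* UMIs of this class in *Eed-cKO* and 18.8% in controls. Apart from *Neurod1* none passed. *Nhlh1* had 9 UMIs in controls and 27 in mutants (adjusted p = 0.104, edgeR), and *Nhlh2* medians of 94.9 and 144 CPM (adjusted p = 0.165, edgeR). Without the *Tfap2b* cluster *Nhlh2* passed at a log2 fold change of 0.70 (adjusted p = 0.0235, edgeR). *Nhlh1* was called too (2.12, adjusted p = 0.0396, edgeR), but its 9 control UMIs alone were under the minimum of 15. It met that filter only through the mutants, where it was high, and is not counted.

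**Figure D3:**
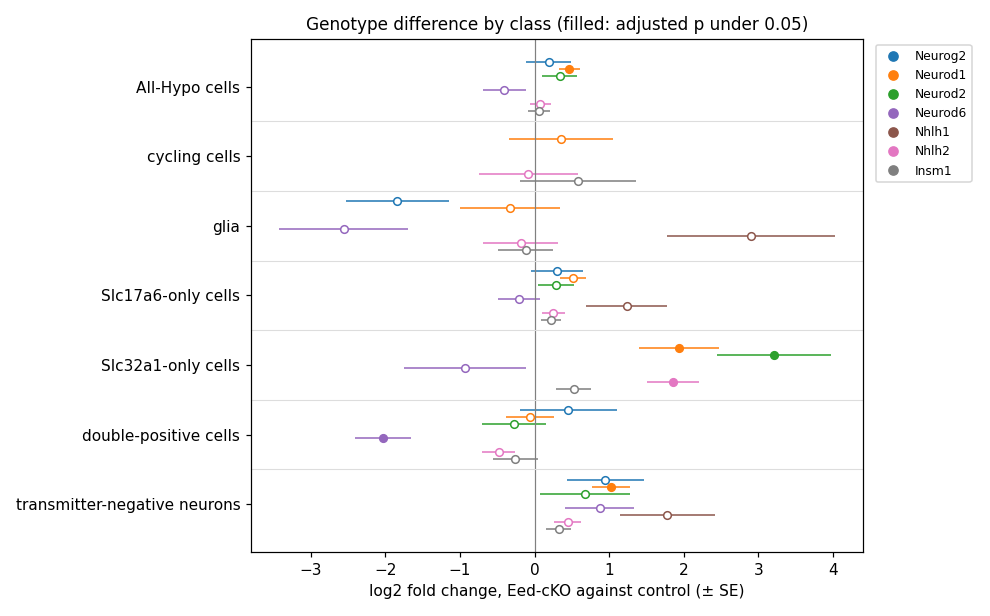
Log2 fold change of *Eed-cKO* against control on the x axis, with bars of 1 SE, for each gene tested in All-Hypo cells and in 6 classes on the y axis. Filled points have an adjusted p under 0.05 (edgeR). They lie to the right of 0 for *Neurod1* in All-Hypo cells, *Slc32a1*-only cells and transmitter-negative neurons, and for *Neurod2* and *Nhlh2* in *Slc32a1*-only cells. The filled point of *Neurod6* in double-positive cells lies to the left. In *Slc32a1*-only cells *Neurod2* met the filter on low values only through the mutants.

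In glia and in cycling cells no member passed. Of 6 genes tested in glia, 0 were called by edgeR, DESeq2 or limma-voom with the fold threshold, and 3 (*Nhlh1*, *Neurog2* and *Neurod6*) had an unadjusted p under 0.05, beside 10.7% of 12941 genes called. *Neurog2* had 19 UMIs in controls, at 0 to 16.8 CPM with a median of 10.7 CPM, and 8 UMIs in mutants, at 0 to 10.8 CPM with a median of 1.65 CPM (adjusted p = 0.0894, edgeR). *Neurod6* had 18 UMIs in controls and 4 in mutants, of which 7 of 9 were at 0 (adjusted p = 0.0530, edgeR). *Nhlh1* went the other way, with 1 UMI in controls and 22 in mutants, 15 of them in embryo 5 (ratio of pooled levels 13.2, 95% interval 2.13 to 544 for counting error only, adjusted p = 0.103, edgeR). In glia *Nhlh1* met the filter on low values only through the mutants, and *Neurog2* and *Neurod6* only through the controls. The unadjusted p of these 3 genes is thus not read as a result. The glia of controls were 82.7% cells of the astrocyte-like cluster and 8.99% of the ependymal-like one, and those of *Eed-cKO* were 61.2% and 24.4%.

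Cycling cells, a cluster with raised oligodendrocyte precursor markers, held few of these transcripts at this stage. Of 3 genes tested, 0 were called by edgeR or by limma-voom with the fold threshold, and none had an unadjusted p under 0.05, beside 3.64% of 10609 genes called. DESeq2 called none either, and gave no adjusted p for *Neurod1* and *Nhlh2*. *Neurod1* had 9 UMIs in controls and 20 in mutants, and *Insm1* 6 and 15. *Neurog2* had no UMI in 132 cycling control cells, which allows a share of cells with a UMI of up to 2.27%, and 10 UMIs in 8 of 167 *Eed-cKO* cells (4.79%, 95% exact binomial interval 2.09 to 9.22%). These came from 4 of the 8 mutant embryos with at least 5 cycling cells. *Neurod2*, *Neurod4* and *Nhlh1* had no UMI in either genotype, which allows a share of cells with a UMI of up to 2.27% in controls and 1.80% in *Eed-cKO*. Cells that express a gene without a captured UMI are not limited by these values. The interval and the upper shares count cells as independent and do not cover the spread between embryos. The interaction with *Slc17a6*-only cells gave 0 calls of 7 with edgeR and 0 with limma-voom, with 1 gene (*Neurog2*) at an unadjusted p under 0.05, beside 1.19% of 14408 genes called. The summed level of 8 oligodendrocyte precursor markers in cycling cells was 4256 to 7537 CPM in controls and 1432 to 5005 CPM in *Eed-cKO*. In glia it was 1170 to 1668 CPM in controls and 548 to 1242 CPM in *Eed-cKO*. The scarcity of the 8 genes here thus does not describe dividing progenitors of neurons alone, and the part of these precursors in the values was not tested.

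The genes were unevenly spread over clusters. A cluster of 225 control and 247 *Eed-cKO* cells, led by *Neurod6*, *Prdm8* and *Zeb2*, held 68.3% of all *Neurod6* UMIs of All-Hypo cells in each genotype. Per embryo, *Neurod6* ran there from 373 to 564 CPM in the 6 controls and from 146 to 651 CPM in the 8 mutants with enough cells. *Neurod1* in the same cluster ran from 60.6 to 401 CPM with a median of 151 CPM in controls and from 179 to 511 CPM with a median of 259 CPM in mutants, and *Neurod2* from 57.3 to 141 and from 47.2 to 150 CPM. The genotypes overlapped for the 3 genes, and no test was run within a cluster. Of its *Eed-cKO* cells 185 were *Slc17a6*-only, and among the telencephalic markers *Emx1* had no UMI in the cluster and *Slc17a7* had 1 in controls and 2 in mutants.

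Other genes had other strongholds. *Nhlh2* was highest in the cluster led by *Cck*, *Emx2* and *Fezf2*, at 300 to 399 CPM in controls and 166 to 1113 CPM in mutants, and the cluster led by *Foxb1* held 17.9% of its UMIs in controls and 19.3% in mutants. *Neurog2* in controls came mainly from the cluster led by *Tcf7l2*, *Kitl* and *Gbx2*, where 375 control cells held 49.1% of its UMIs. The 37 *Eed-cKO* cells of that cluster held 4.78% of the mutant *Neurog2* UMIs, all from 1 embryo. In mutants the *Cck* cluster held 24.3% of *Neurog2* UMIs and the *Tfap2b* cluster 15.9%. *Insm1* was highest per UMI in the cluster led by *Dlx6os1* and *Lhx6*, at 182 CPM in controls and 146 CPM in mutants, and stood at 140 CPM in an unnamed cluster of 61 cells, all *Eed-cKO*, with raised *Ttr*, *Cga* and *Tshb*. The *Tfap2b* cluster held 31.7% of the *Neurod2* UMIs and 12.8% of the *Neurod1* UMIs of *Eed-cKO* All-Hypo cells, and none of those of controls.

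**Figure D4:**
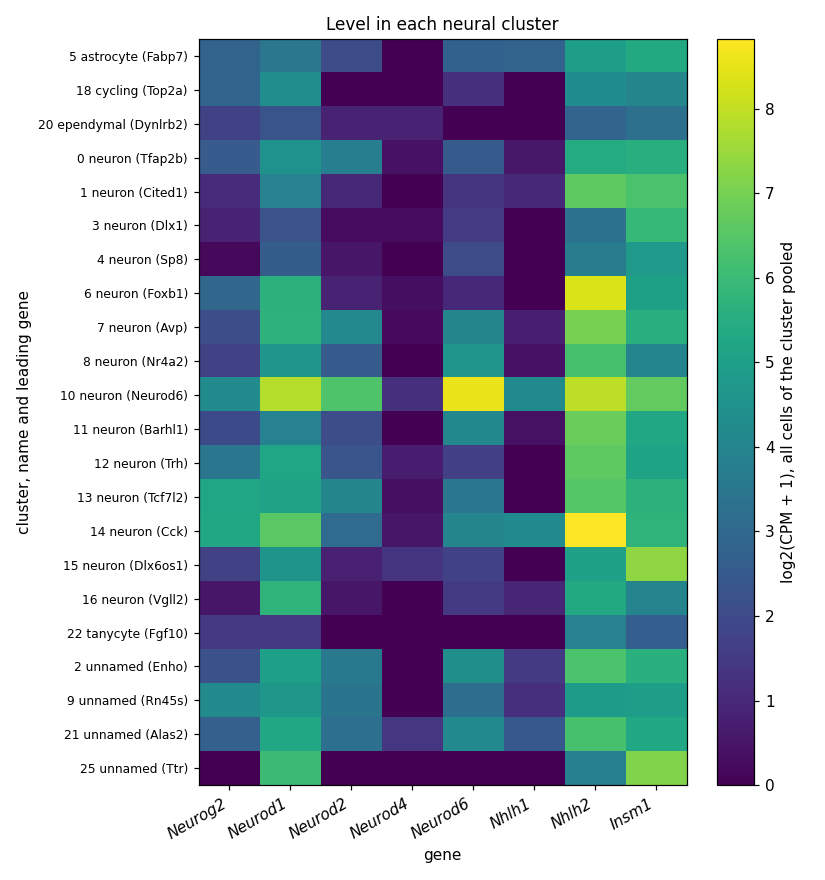
Pooled level of each gene (x axis) in 22 neural clusters (y axis, with the cluster's name and leading gene), coloured by log2(CPM + 1) from 0 (dark) to the highest value (yellow), with both genotypes summed. Within a column, *Neurod6* and *Neurod2* peak in the cluster led by *Neurod6*, *Nhlh2* in that led by *Cck*, and *Neurod4* stays near 0.

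Over the 22 neural clusters of at least 50 cells, the gene whose pattern was most like that of *Neurod6* was *Neurod2* (Pearson r = 0.897 of log2(CPM + 10), among 10702 genes), and *Adamts2* and *Ebf2* came next. *Neurod2* in turn was nearest to *Neurod6*, *Prdm8* and *Nos1*. *Nhlh2* was nearest to *Uncx*, *Nxph4* and *Tmem163* (r = 0.838, 0.832 and 0.825), *Neurod1* to *2900009J06Rik*, *Nhlh2* and *Chst8* (0.750, 0.704 and 0.689), and *Insm1* to *Cnst*, *Tmtc4* and *4921524J17Rik* (0.792, 0.734 and 0.722). *Neurog2* was nearest to *Vav3*, *Casp9* and *Mdga1* (0.716, 0.679 and 0.669) and *Nhlh1* to *Neurod6*, *Fam101a* and *Npy1r* (0.699, 0.674 and 0.674). For *Neurod4*, with 20 UMIs in all, the nearest were *Igfbpl1*, *Ercc1* and *Dnajc4* (0.698, 0.674 and 0.647). The clusters share libraries and differ in depth, so these values describe the clusters only. The r of *Insm1* with the other members ran from 0.13 (*Neurog2*) to 0.46 (*Neurod1*).

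Within single neuron-like cells of both genotypes, the genes were found together to different degrees. Of 342 cells with a *Neurod2* UMI, 40.9% also had one of *Neurod6*, beside 5.02% of all neuron-like cells, and 36.3% one of *Neurod1*, beside 9.88%. Of 70 cells with *Nhlh1*, 65.7% had *Neurod1* and 74.3% *Nhlh2*, the latter beside 26.1% of all neuron-like cells. *Insm1* was found in 16.7% of *Neurod2* cells and in 17% of all neuron-like cells. The *Neurod2* cells had a median of 6482.5 UMIs against 5214 in neuron-like cells, and the *Nhlh1* cells 4999.5, so that the former were deeper than the rest. At least 1 of the 8 genes was found in 36.9% of All-Hypo cells of controls and in 39.1% of those of mutants. By class the share was 61.9% and 57.3% in *Slc17a6*-only cells, 20.6% and 26.9% in *Slc32a1*-only cells, 44.3% and 38.3% in double-positive cells, 32.6% and 42.9% in transmitter-negative neurons, 16.5% and 13.2% in glia and 12.1% and 18.6% in cycling cells.

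Other genes of the same pathways were followed from 4 lists in All-Hypo cells, beside the 15.3% of genes that rose and the 12.4% that fell. Of 12 other neural bHLH genes in the table, 6 were tested and 3 rose. They included *Tal1*, a factor of GABAergic neurons in the midbrain and spinal cord (4.46 ± 2.53 and 92.6 ± 12.9 CPM, log2 fold change 4.39 ± 0.20, adjusted p = 7.29e-13, edgeR), and *Olig3* (3.19 ± 0.43). The median log2 fold change of the 6 was 0.53.

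Of 25 Notch pathway genes tested, 7 rose and 2 fell, with a median log2 fold change of 0.35. The repressors *Hes1*, *Hey1* and *Hey2* rose most: *Hes1* ran from 16.9 to 34.6 CPM in controls and from 72.1 to 179 CPM in mutants, without overlap (2.26 ± 0.20, adjusted p = 3.74e-08, edgeR). *Hey1* went from a mean of 12.4 ± 1.09 to 40.2 ± 9.32 CPM and *Hey2* from 3.73 ± 0.91 to 10.6 ± 3.54 CPM. The genes that fell were *Dner*, a Notch ligand of neurons (609 ± 86.3 to 416 ± 44.4 CPM), and *Numbl* (31.4 ± 3.34 to 25.6 ± 4.78 CPM), a Notch antagonist. Glia, in which *Hes1* and its relatives are known to be active, made up a larger share of the mutant cells, as given above, and the part of that share in these rises was not tested.

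Of 7 Id and E protein genes, 5 rose and none fell, with a median of 0.40. They included the bHLH inhibitors *Id1* (9.32 ± 2.18 to 40.1 ± 12.6 CPM, log2 fold change 2.10 ± 0.22) and *Id3* (23.7 ± 9.41 to 76.1 ± 25.6 CPM, 1.72 ± 0.24) and the E protein gene *Tcf12* (44.0 ± 4.23 to 68.4 ± 13.4 CPM, 0.63 ± 0.11), with adjusted p of 3.94e-07, 1.50e-05 and 0.000222 (edgeR). Of 21 genes of the neuronal programme tested, 4 rose and 3 fell, with a median of −0.06. *Btg2*, an antiproliferative gene switched on as progenitors become neurons, went from 70.9 ± 10.4 to 182 ± 23.6 CPM (1.36 ± 0.10, adjusted p = 1.66e-09, edgeR), *Gadd45g* from 29.5 ± 6.30 to 57.6 ± 9.68 CPM and the zinc-finger gene *Myt1* from 39.9 ± 3.59 to 64.5 ± 7.69 CPM. The RNA-binding protein genes *Elavl2* and *Elavl3* and *Stmn2*, a regulator of microtubules in growing neurites, fell, *Stmn2* from 3671 ± 307 to 2786 ± 132 CPM (−0.40 ± 0.06, adjusted p = 7.80e-05, edgeR).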

How the data were processed

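The samples were dissociated E18.5 mouse hypothalami profiled by droplet sequencing (ddSEQ), from 6 control and 9 *Eed-cKO* embryos (48 libraries). The table analysed here, as the authors deposited it, holds raw UMI counts for each gene in each cell (16510 genes, 14121 cells, no cell under 601 UMIs or 318 genes). Their processing notes name STAR 2.5.2b, SAMtools 1.3 and build mm10. No column lacked a sample. The depth per embryo, given with the results, limits the scarce genes, and intervals cover counting error only.

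Cells were scaled to 10000 UMIs and clustered without the 8 genes (scanpy 1.11.5, 2000 variable genes clipped at 10 SD, 30 components, 15 neighbours, resolution 1), and clusters were named from marker lists. Cell types were rebuilt in this way, so that shares may differ from the study's. Doublets were not removed, other than in an alternative that dropped the 6% highest Scrublet scores of each library. Counts were summed per embryo and class (at least 5 cells) and tested with edgeR 4.0.16 (quasi-likelihood, TMM, Benjamini-Hochberg over all genes tested, threshold 0.05) in R 4.3.3, on genes with at least 15 UMIs in all and 2 in 1 sum. All-Hypo cells also needed the study's median log-CPM of 1.5. Embryos were a block in fits of 2 classes. Shares were compared by exact two-sided permutation over all 5005 splits of the embryos, adjusted over the 6 classes. A sum is an embryo's, and embryos of 1 litter are not fully independent. The fits and the permutation test were tested on simulated data.

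Alternatives were DESeq2 1.42.0, limma 3.58.1 (voom, TREAT at 0.18), size factors or library size for scaling, other filters, class definitions and doublet or marker filters, sex as a covariate, libraries or litters as samples, thinning to 2000 UMIs and each embryo left out. Those without the *Tfap2b* cluster or the unnamed clusters, and the interactions with at least 2 UMIs or thinned cells, were chosen after seeing the data. The genes and lists were chosen with earlier results of these data known. Named are all 8 genes, the 3 largest rises and falls past the threshold in each list, and the 3 genes most like each member (Pearson r of log2(CPM + 10) over clusters of at least 50 cells, genes with at least 500 UMIs). Promoters came from RefSeq (GRCm38.p6, 7 of 8 genes matched), and gene positions from GENCODE vM21. Some genes that the rule or the marker lists would name are not reported here.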

Additional observations from a re-analysis of the deposited data

Results flagged for a closer look

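Of 80 groups of 6, 8 or 9 embryos (8 genes, both genotypes, several sets of cells), 15 had a highest embryo whose gap to the next, divided by the range of the group, passed Dixon's 95% critical value. Chance alone gives about 1 in 20 groups for normally distributed values, but many of these levels rest on a few UMIs with embryos at 0. A group with 1 embryo above 0 is flagged by construction. The count of 15 can thus not be set against that rate. In glia, the embryos that stood apart were *Eed-cKO* embryo 4 for *Insm1* at 78.8 CPM, *Eed-cKO* embryo 3 for *Neurod6* at 7.39 CPM, *Eed-cKO* embryo 8 for *Neurog2* at 10.8 CPM, *Eed-cKO* embryo 5 for *Nhlh1* at 21.9 CPM and for *Nhlh2* at 61.2 CPM, and control embryo 2 for *Nhlh1* at 4.50 CPM. In cycling cells they were control embryo 5 for *Insm1* at 34.7 CPM and *Eed-cKO* embryo 1 for *Nhlh2* at 84.1 CPM. In transmitter-negative neurons, *Eed-cKO* embryo 4 was apart for *Neurod1* at 114 CPM and for *Nhlh1* at 24.3 CPM, and *Eed-cKO* embryo 9 for *Neurod2* at 40.7 CPM. In *Slc32a1*-only cells, control embryo 6 was apart for *Neurod2* at 1.98 CPM, the only control with a UMI, and *Eed-cKO* embryo 6 for *Neurod6* at 5.66 CPM. *Eed-cKO* embryo 2 was apart for *Neurod6* in *Slc17a6*-only cells at 151 CPM, and control embryo 3 for *Neurog2* in double-positive cells at 20.3 CPM.

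The genotype effect differed between classes by the interaction test for 2 genes in each of 2 pairs of classes. Against *Slc17a6*-only cells, the log2 fold change in *Slc32a1*-only cells was larger by 3.14 for *Neurod2* and by 1.54 for *Nhlh2*. The *Neurod2* value rests on 3 control UMIs in *Slc32a1*-only cells and is not counted as a result. In double-positive cells, the difference from *Slc17a6*-only cells was −0.82 for *Nhlh2* and −1.69 for *Neurod6*. None of these calls held without the *Tfap2b* cluster. Those of *Nhlh2* and *Neurod6* were also lost on thinning and with the embryo as a random block.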

How the results depend on the processing

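No paired analysis was possible because embryo numbers run within a litter and no litter held both genotypes. Leaving out each embryo in turn kept the calls of *Neurod1* in All-Hypo cells, *Slc32a1*-only cells and transmitter-negative neurons, of *Nhlh2* in *Slc32a1*-only cells and of *Neurod6* in double-positive cells in 15 of 15 fits. *Neurod2* in *Slc32a1*-only cells was tested in 11 of these fits and called in them. Only fits that kept at least 15 UMIs, most of them from mutants, could test it. They thus do not show how firm that call is. *Neurod1* in *Slc17a6*-only cells, not called with all embryos, was called in 3 of 15, *Neurod6* in glia in 4 of 14, *Neurog2* in glia without *Eed-cKO* embryo 8 (adjusted p = 0.0485) or control embryo 1 (0.0373), *Nhlh2* in transmitter-negative neurons without control embryo 4 (0.0120), and the *Neurod1* interaction of *Slc32a1*-only cells without control embryo 2 (2.64, adjusted p = 0.00028). In glia *Neurod6* and *Neurog2* met the filter on low values only through the controls, where they were high, so their calls there are not counted. Over all alternatives, 3201 values of single genes kept their direction and side of the threshold, 111 lost a call, 54 gained one and 3 reversed. The 3 reversed on thinning to 2000 UMIs, a depth that 1231 cells of controls and 1015 of mutants did not reach: *Neurod6* in glia against transmitter-negative neurons of controls (−2.10), *Neurog2* in cycling against *Slc32a1*-only cells of *Eed-cKO* (−2.15) and *Insm1* in *Slc32a1*-only cells against transmitter-negative neurons of *Eed-cKO* (0.12).

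Numbers of genes called between genotypes moved as follows, and the cause was not tested. With TREAT they were 1496 (of 3482 with edgeR) in All-Hypo cells, 150 (of 386) in cycling cells, 869 (of 1384) in glia, 299 (of 1011) in *Slc17a6*-only, 613 (of 1146) in *Slc32a1*-only, 281 (of 559) in double-positive and 239 (of 627) in transmitter-negative cells. The library as sample gave 5860 in All-Hypo cells. In cycling cells DESeq2 gave 163, filterByExpr 142 and cells chosen by markers 35. Thinning gave 395 in *Slc17a6*-only, 330 in *Slc32a1*-only and 81 in double-positive cells, and a minimum of 2 UMIs 748 and 198 in the latter classes. Classes over all All-Hypo cells gave 1631 in *Slc17a6*-only cells. In double-positive cells filterByExpr gave 371 and leaving out the *Tfap2b* cluster 133. The interaction of *Slc32a1*-only cells (226) gave 66 on thinning. That of double-positive cells (255) gave 86 with a random embryo block, 94 with 2 UMIs, 61 on thinning and 57 without the *Tfap2b* cluster. Between *Slc17a6*-only and *Slc32a1*-only cells, controls (580) gave 370 without the embryo block and 297 on thinning, and *Eed-cKO* (844) gave 297 on thinning. Leaving out single embryos gave 218 to 444 in cycling cells (218 without *Eed-cKO* embryo 5, 235 without control embryo 6) and 93 to 200 for the interaction of cycling cells (171), which moved most without *Eed-cKO* embryos 5 to 7 or control embryos 4 to 6. Scaling by size factors moved *Slc32a1*-only calls from 501 higher and 645 lower to 613 and 492, and library size alone moved All-Hypo calls from 1920 and 1562 to 2303 and 1097.

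The share of *Slc17a6*-only cells (−5.43 percentage points) was −1.41 on thinning and −6.78 to −4.37 without single embryos. That of transmitter-negative neurons went from −0.59 to −7.51 on thinning (adjusted p = 0.0048, exact permutation test), and that of cycling cells from 0.58 to 0.79 with libraries as samples (adjusted p = 0.0331, permutation test). The difference between genotypes in the share of cells with a UMI was 0.448 points for *Neurod1*, 0.0178 for *Neurod4* and 0.220 for *Nhlh1* on thinning, against 2.22, 0.154 and 0.448 without it.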
